A study of Mus musculus with 6 samples.

Results

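Long non-coding RNAs (lncRNAs) that carry small nucleolar RNAs (snoRNAs) or microRNAs inside their genes, with a few well-known nuclear and imprinted lncRNAs, were examined in SL4 mouse colorectal cancer (CRC) cells with and without SEMA6A overexpression. Members were defined by gene name, by a rule set with earlier results of these data known: Snhg followed by a number, names that start with Mir and end in hg, and Gas5, Malat1, Neat1, Meg3, Rian, Mirg, H19, Kcnq1ot1, Dleu2, Pvt1, Norad, Epb41l4aos, Cyrano and Oip5os1. The rule matched 44 of the 53700 listed genes, and no gene was listed as Cyrano. Of these 44, 28 had a mean of at least 1 TPM (a level scaled by transcript length and by the library total) and are described one by one.

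SL4 is a mouse CRC line, here with luciferase in both groups. The pLV-SEMA6A group (n = 3 libraries) was a stable line with lentiviral overexpression of SEMA6A, a transmembrane semaphorin, and the pLV-Control group (n = 3 libraries) lacked that overexpression. Poly-A RNA was sequenced. No separately made pLV-SEMA6A lines were described, so the p-values measure the spread between these libraries, and overexpression cannot be told apart from other differences between 2 cell lines.

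snoRNAs are short guide RNAs of the nucleolus. Those with boxes C and D direct 2′-O-methylation of ribosomal and other RNAs, those with boxes H and ACA direct pseudouridylation, and scaRNAs do the same for small nuclear RNAs in Cajal bodies. Most vertebrate snoRNAs lie in introns of host genes and are released when the intron is spliced out, while the joined exons leave as a separate spliced RNA that is often short-lived and removed by nonsense-mediated decay. MicroRNA host genes are cut by the Drosha complex at hairpins in their introns or exons, and the mature microRNA then pairs with targets mainly through its seed.

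By GENCODE M21, 18 of the 28 genes contained a snoRNA or scaRNA, 5 contained a microRNA without either (Mir100hg, Mir22hg, Mir155hg, Mir17hg and Dleu2), and 5 contained none of these (Pvt1, Malat1, Neat1, Norad and Oip5os1). For short, all genes matched by the rule are called host lncRNAs below, although these last 5 host no annotated small RNA of these kinds. Snhg14 contained the most, 208 snoRNAs, of which 189 had both a box C and a box D by the letters searched. Gas5 contained 10 entries, of which 7 had both boxes and 2 were overlapping entries for Snord80, and Snhg1 contained 8, of which 5 did. Snhg12 was mixed, with 1 box C/D snoRNA, 3 entries with an ACA box, of which 2 are named Snora16a, and 1 that the letters did not class. By the same annotation, snoRNA entries overlap annotated exons of several hosts, with 10 in Gas5, 8 in Snhg1 and 5 in Snhg12. Other hosts, such as Epb41l4aos, Snhg6 and Snhg18, had no such overlap. The gene-level values below do not separate fully spliced forms from forms that keep a snoRNA.

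The following snoRNAs show examples of what 4 of the hosts that fell carry, with the build GRCm38 and the annotation from GENCODE M21. Snord80 (chr1:161037604-161037680, plus strand) and Snord47 (chr1:161038082-161038158, plus strand) lie in Gas5. Snord50a (chr9:88521529-88521600, minus strand) and Snord50b (chr9:88521797-88521868, minus strand) lie in Snhg5, Snora61 (chr4:132310240-132310369, plus strand) in Snhg12 and Snora24 (chr3:123507937-123508066, minus strand) in Snhg8. Capitals mark box C (TGATGA) and box D (CTGA) in the first 4, and the ACA box, 3 bases from the end, in the other two.
Snord80: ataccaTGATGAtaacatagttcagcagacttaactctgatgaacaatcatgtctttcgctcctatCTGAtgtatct
Snord47: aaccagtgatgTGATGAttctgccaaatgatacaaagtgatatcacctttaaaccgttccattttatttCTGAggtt
Snord50a: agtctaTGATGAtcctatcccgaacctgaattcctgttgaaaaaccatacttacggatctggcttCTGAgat
Snord50b: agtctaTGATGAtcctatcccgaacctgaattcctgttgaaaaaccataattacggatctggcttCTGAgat
Snora61: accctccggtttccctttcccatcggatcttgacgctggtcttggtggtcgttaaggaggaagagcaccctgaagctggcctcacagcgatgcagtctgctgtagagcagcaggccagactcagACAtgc
Snora24: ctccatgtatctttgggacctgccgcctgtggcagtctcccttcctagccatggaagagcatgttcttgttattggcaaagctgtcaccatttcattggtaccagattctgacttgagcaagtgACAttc

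Mature microRNAs of the 5 microRNA hosts, 1 arm of each, are given by shared seed as examples of what these hosts yield. The host levels below are not levels of these microRNAs. Their sequences are from RefSeq on GRCm38.p6, with the seed (bases 2 to 8) in capitals. miR-17-5p and miR-20a-5p of Mir17hg share 1 seed, miR-19a-3p and miR-19b-3p of Mir17hg share another, and miR-15a-5p and miR-16-5p of Dleu2 share 1 more seed. The others printed come from Mir17hg (miR-18a-5p and miR-92a-3p), Mir100hg (miR-100-5p and miR-125b-5p), Mir22hg and Mir155hg. Mir100hg also contains Mirlet7a-2, whose let-7a-5p was missing from the sequences used and is not printed.
miR-17-5p: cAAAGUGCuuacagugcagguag
miR-20a-5p: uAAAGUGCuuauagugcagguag
miR-19a-3p: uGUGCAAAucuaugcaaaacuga
miR-19b-3p: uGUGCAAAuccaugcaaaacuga
miR-15a-5p: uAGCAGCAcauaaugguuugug
miR-16-5p: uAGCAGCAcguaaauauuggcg
miR-18a-5p: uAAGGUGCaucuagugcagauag
miR-92a-3p: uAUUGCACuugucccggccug
miR-100-5p: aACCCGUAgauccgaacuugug
miR-125b-5p: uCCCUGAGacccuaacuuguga
miR-22-3p: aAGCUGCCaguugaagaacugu
miR-155-5p: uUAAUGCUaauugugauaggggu

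The labels were checked first. The 3 control libraries listed Sema6a at 0, and the 3 overexpressing libraries had 98.7, 118 and 112 TPM of it. The listed TPM summed to between 977400 and 986444 per library, and 18798 to 18887 genes were above 0 in the pLV-SEMA6A libraries against 19340 to 19463 in the pLV-Control libraries. TPM carries no sequencing depth, so the reads behind a value are unknown. Libraries of 1 group correlated at 0.967 to 0.979 across genes, and libraries of different groups at 0.941 to 0.957. Of 9 epithelial markers, 1 reached 1 TPM in any library (Lgals4), their sum was 1.91 to 2.82 TPM in pLV-Control cells and 0.53 to 1.33 TPM in pLV-SEMA6A cells, and Epcam and Cdx2 were listed at 0 throughout. No haematopoietic or endothelial marker of 8 reached 1 TPM. All 6 mesenchymal markers did in some library, with sums of 1011 to 1048 TPM in pLV-Control cells and 1568 to 1609 TPM in pLV-SEMA6A cells, and the part of this difference in the results below was not tested. The sum was mostly Vim (886 to 907 TPM and 1386 to 1424 TPM) and Col3a1, and the mesenchymal markers did not all go the same way, as Pdgfrb went from between 10.2 and 10.7 TPM to between 6.53 and 6.92 TPM. In bulk RNA, fewer cells expressing a gene and less RNA per cell cannot be told apart.

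The host lncRNAs were lower as a group of transcripts in pLV-SEMA6A cells, with Gas5, Snhg12 and Pvt1 falling the most among those above 50 TPM in the control, and none was a DEG with a higher level. Together the 28 genes made up 5051, 5125 and 4888 TPM in pLV-Control cells and 3024, 3096 and 3136 TPM in pLV-SEMA6A cells, a ratio of 0.614 between the group means, and the groups did not overlap. Gas5 alone was 37.8% of this sum in the control and 29.1% with SEMA6A, and without it the ratio was 0.701. Among the 28 genes, Gas5 and Snhg1 were the first and second most abundant in both groups, while Snhg12 moved from rank 5 to 7 and Pvt1 from 12 to 15.

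**Figure D1:**
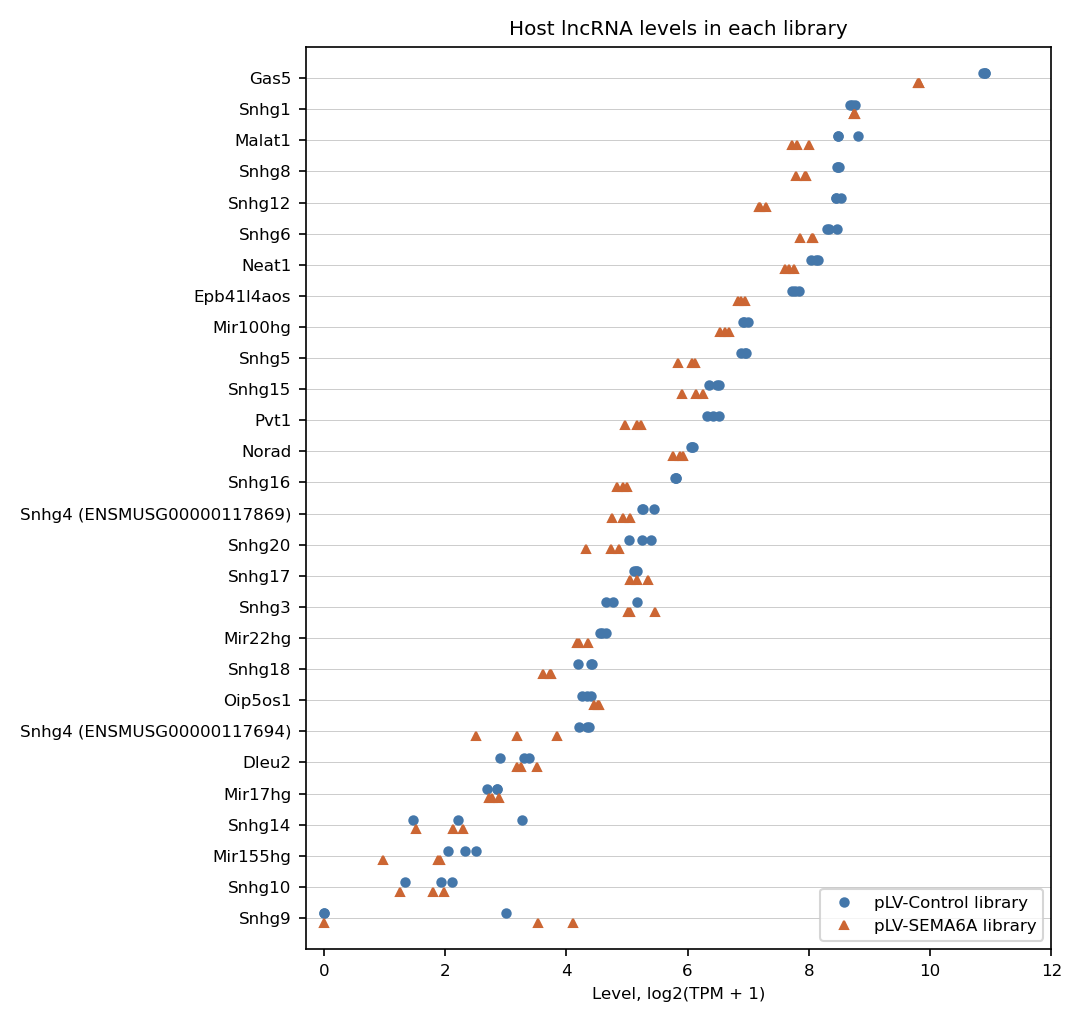
Level of each of the 28 host lncRNAs as log2(TPM + 1) on the horizontal axis, with genes in the order of their control mean and 1 point per library (circles pLV-Control, triangles pLV-SEMA6A). The triangles lie left of every circle in 19 genes, right of every circle in Oip5os1, and overlap the circles in the other 8.

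Each gene was tested in 1 limma fit over the 12510 genes averaging 1 TPM or more, on the log2(TPM + 1) scale, which understates changes of low genes. DEGs needed a Benjamini-Hochberg adjusted p below 0.05 together with a log2 fold change beyond 0.5 in either direction. Of the 28 host lncRNAs, 11 were DEGs with lower levels and 0 with higher levels by limma, where 10.8% of all genes tested were lower DEGs and 5.12% higher DEGs. By adjusted p alone, 18 were lower and 1 was higher, beside 28.2% and 19.5% of all genes. All pLV-SEMA6A libraries lay below all pLV-Control libraries in 19 of the 28, beside 34.7% of all genes, and above them in 1, beside 23.8%. The median log2 fold change of the 28 was −0.39, against −0.06 over all genes.

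The background of other lncRNAs was also below zero. Of 632 other lncRNAs tested, 16.9% were lower DEGs and 5.54% higher DEGs, and their median was −0.18. Host lncRNAs were mostly abundant, so the comparison was repeated at a mean of at least 10 TPM. There, 11 of 22 host lncRNAs and 19 of 97 other lncRNAs (19.6%) were lower DEGs, and 0 and 6 (6.19%) higher DEGs, with medians of −0.50 and −0.17. These counts are a description, since no test of the group was made.

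**Figure D2:**
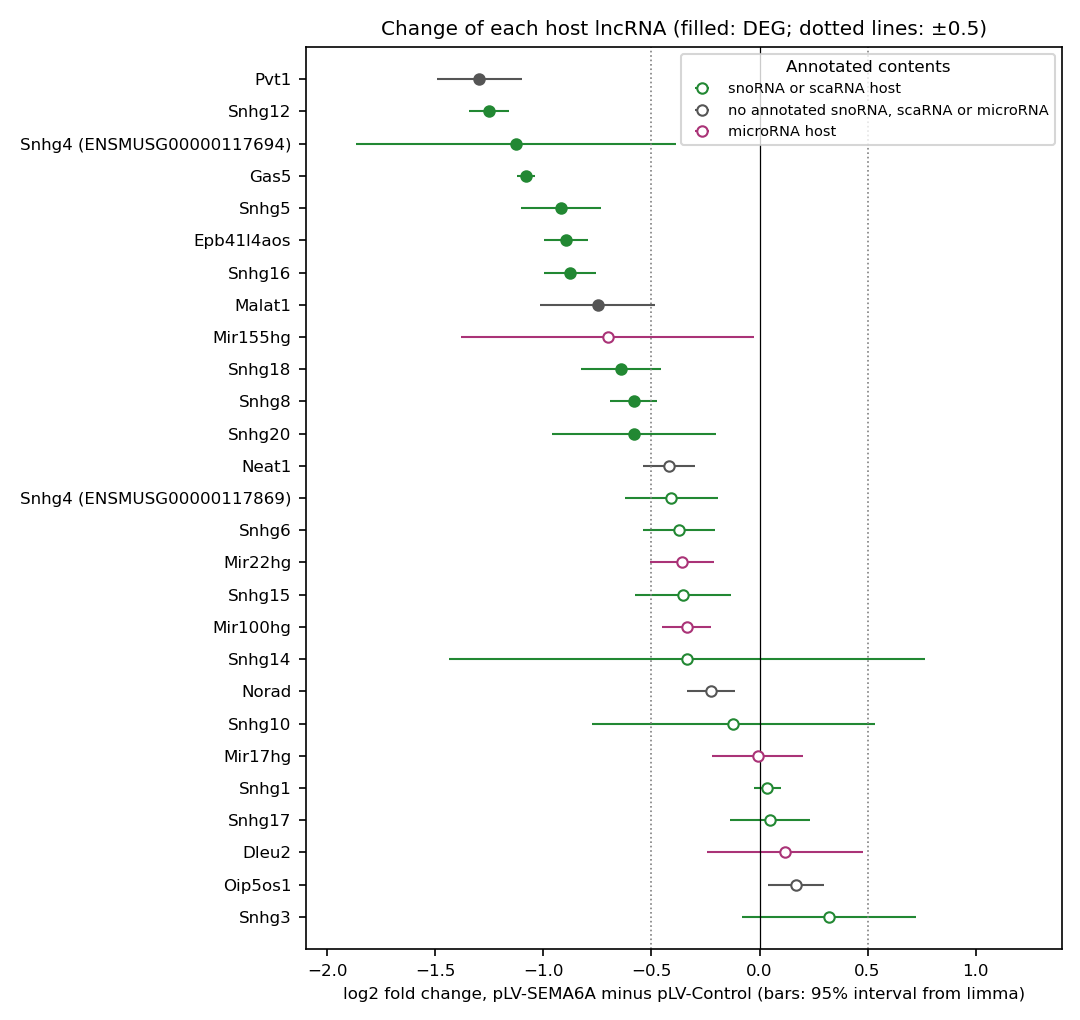
Log2 fold change (pLV-SEMA6A minus pLV-Control) of 27 host lncRNAs with the 95% interval from limma, coloured by the small RNAs annotated inside the gene. Filled points are the 11 DEGs, all left of −0.5, and Snhg9 is not drawn because it was listed at 0 in 3 libraries.

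**Figure D3:**
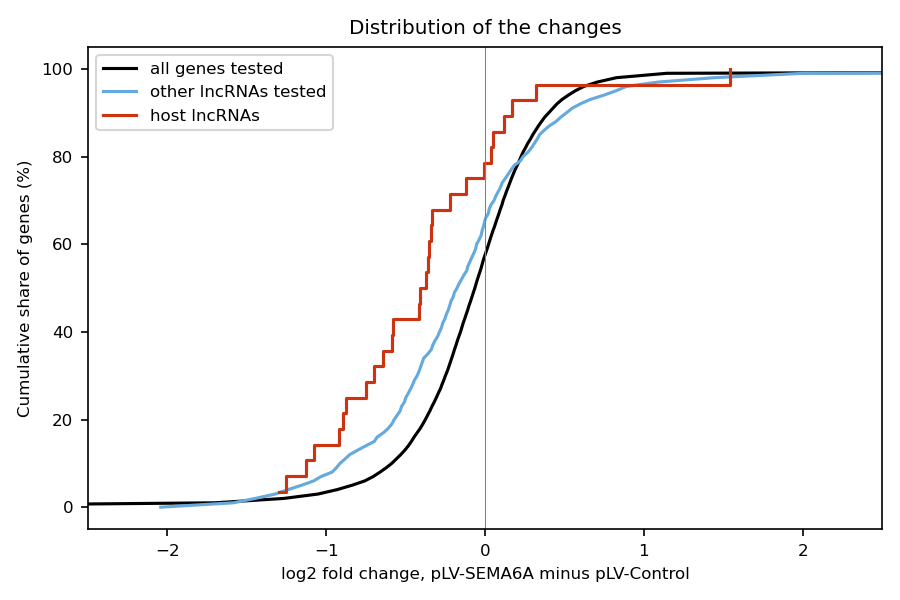
Cumulative share of genes in percent (vertical axis) against log2 fold change (horizontal axis) for all 12510 genes tested, the 632 other lncRNAs and the 28 host lncRNAs. The line of the host lncRNAs lies left of the others over most of its length, with medians of −0.39, −0.18 (other lncRNAs) and −0.06 (all genes).

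Among the 18 snoRNA and scaRNA hosts, 9 fell (lower DEGs) and none rose (higher DEGs), beside 10.8% and 5.12% of all genes tested. By adjusted p alone, 12 were lower and 0 higher, beside 28.2% and 19.5%, and the median log2 fold change was −0.49. Both identifiers named Snhg4 are among the 18, and 1 of them is among the 9. Counts for the other host lncRNAs below stand against the same shares. Gas5 (ENSMUSG00000053332, chromosome 1), a host whose spliced exons are known to accumulate when growth stops, was the most abundant. Its levels were 1919.7, 1913 and 1867 TPM in pLV-Control cells and 893, 900.0 and 903 TPM in pLV-SEMA6A cells. No pLV-SEMA6A library came near a control library, and the libraries of each group were close together. The log2 fold change was −1.08 ± 0.02 (SE, n = 3 per group, limma adjusted p = 3.8e-07), a mean 52.7% lower.

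Snhg12 (ENSMUSG00000086290, chromosome 4), host of Snora44 and Snora61 among others, had the largest fall of the snoRNA hosts. It had 347, 367 and 348 TPM in pLV-Control cells and 145, 144 and 155 TPM in pLV-SEMA6A cells. All 3 pLV-SEMA6A libraries were under every control library. By limma, the log2 fold change was −1.25 ± 0.04 (SE, adjusted p = 3.5e-06).

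Snhg5 (ENSMUSG00000097195, chromosome 9), host of the Snord50 pair printed above, had 124, 122 and 117 TPM in pLV-Control cells and 68.8, 66.3 and 56.1 TPM in pLV-SEMA6A cells, with no overlap. On the log2 scale, the change was −0.92 ± 0.08 (SE, limma adjusted p = 0.000182). Of its 31-base stretches, 14.7% occur in other annotated genes, so some of its signal could be shared.

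Epb41l4aos (ENSMUSG00000087590, chromosome 18), a spliced snoRNA host next to Epb41l4a, had 228, 217.5 and 211 TPM in pLV-Control cells. It had 117, 122 and 113 TPM in pLV-SEMA6A cells, about as close together as the controls and without overlap. The log2 fold change was −0.90 ± 0.04 (SE, limma adjusted p = 2.1e-05). Its neighbour Epb41l4a, named for its place and after its values were seen, had means of 30.7 ± 2.64 and 30.5 ± 1.64 TPM (SD, n = 3 each; log2 fold change −0.01, limma adjusted p = 0.943).

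Snhg16 (ENSMUSG00000020812, chromosome 11), host of Snord1a, Snord1b and Snord1c, had 54.4, 55.3 and 55.1 TPM in pLV-Control cells and 27.6, 29.7 and 31.2 TPM in pLV-SEMA6A cells. The groups were apart. By limma, the log2 fold change was −0.88 ± 0.05 (SE, adjusted p = 4.2e-05). Of its exonic bases, 17.9% lie opposite St6galnac2, and reads of opposite strands cannot be separated where the library strand is not stated.

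Snhg8 (ENSMUSG00000104960, chromosome 3), host of Snora24, was among the abundant hosts and fell less. Its levels were 350.3, 356 and 359 TPM in pLV-Control cells and 244.5, 221 and 246 TPM in pLV-SEMA6A cells, without overlap. On the log2 scale, the change was −0.58 ± 0.04 (SE, limma adjusted p = 0.000125). With each library centred on its median, the change was −0.49 and Snhg8 was no longer a DEG.

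Snhg18 (ENSMUSG00000096956, chromosome 15), host of Snord123, had 20.4, 17.4 and 20.1 TPM in pLV-Control cells and 12.4, 11.3 and 12.3 TPM in pLV-SEMA6A cells. The lowest control library was above every pLV-SEMA6A library. The log2 fold change was −0.64 ± 0.08 (SE, limma adjusted p = 0.000826).

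Snhg20 (ENSMUSG00000086859, chromosome 11), which contains a scaRNA and Mir6516, was at 31.7, 37.2 and 41.0 TPM in pLV-Control cells and at 18.99, 28.2 and 25.8 TPM in pLV-SEMA6A cells. The groups did not overlap, but each was spread. By limma, the log2 fold change was −0.58 ± 0.16 (SE, adjusted p = 0.0232). The call was kept in 2 of the 6 fits that left out 1 library: without pLV-Control replicate 2 or 3, or pLV-SEMA6A replicate 3, the adjusted p by limma was 0.0721, 0.0768 and 0.0507, and without pLV-SEMA6A replicate 1 the change was −0.42. The call was also lost with each library centred on its median (−0.49) and without the filter on low values (adjusted p = 0.0578 by limma).

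2 identifiers carry the name Snhg4, on chromosome 18 next to Matr3, which encodes a nuclear matrix protein. ENSMUSG00000117694 had 17.4, 19.8 and 19.2 TPM in pLV-Control cells and 13.3, 8.06 and 4.71 TPM in pLV-SEMA6A cells, without overlap but with a wide spread in pLV-SEMA6A. Its log2 fold change was −1.13 ± 0.31 (SE, limma adjusted p = 0.0238). GENCODE M21 lists this identifier as protein coding, 92.3% of its exonic bases lie in other genes of the same strand and 84.2% of its 31-base stretches occur in other genes, so its value is uncertain. It was a DEG in 2 of the 6 fits without 1 library: without any 1 control library or pLV-SEMA6A replicate 2, the adjusted p by limma was 0.0685 to 0.0750. Without the filter on low values it was 0.0610 by limma.

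The other Snhg4 identifier, ENSMUSG00000117869, had 42.5, 37.3 and 37.0 TPM in pLV-Control cells and 25.9, 29.6 and 32.0 TPM in pLV-SEMA6A cells. The groups did not overlap. It passed the adjusted p (0.0104 by limma) with a log2 fold change of −0.41 ± 0.09 (SE), short of the fold threshold. Matr3 itself, named after its values were seen, had means of 198 ± 3.75 and 157 ± 9.53 TPM (SD, n = 3 each), with a log2 fold change of −0.33 (limma adjusted p = 0.00159).

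Snhg6 and Snhg15 were also lower by adjusted p and under the fold threshold. Snhg6, host of Snord87, had 353, 322 and 314 TPM in pLV-Control cells and 231, 263 and 269 TPM in pLV-SEMA6A cells (log2 fold change −0.37 ± 0.07 SE, limma adjusted p = 0.00505). Snhg15, host of Snora9, had 91.0, 88.7 and 80.8 TPM in pLV-Control cells and 59.2, 69.6 and 75.1 TPM in pLV-SEMA6A cells (−0.35 ± 0.09 SE, limma adjusted p = 0.0194). Of the exonic bases of Snhg6, 11.1% lie opposite Mcmdc2, so part of its signal could come from that gene. Neither gene's groups overlapped, and pLV-SEMA6A replicate 1 was the lowest library in both. Leaving out single libraries took the adjusted p of Snhg15 up to 0.0757 by limma. With each library centred on its median, the change of Snhg15 was −0.26 (limma adjusted p = 0.0600).

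Snhg1 (ENSMUSG00000108414, chromosome 19), which like Gas5 carries several box C/D snoRNAs, did not pass the test. Its levels were 417, 433 and 409.9 TPM in pLV-Control cells and 429.7, 428 and 434 TPM in pLV-SEMA6A cells. The groups overlapped within a narrow range. On the log2 scale, the change was 0.04 (95% interval −0.03 to 0.10, limma adjusted p = 0.283), whereas the interval of Gas5 was −1.12 to −1.04. With each library centred on its median, the change of Snhg1 was 0.13. It then passed the adjusted p (0.00934 by limma) but not the fold threshold.

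Snhg17 and Snhg3 also overlapped between groups. Snhg17 had 33.5, 34.6 and 34.7 TPM in pLV-Control cells and 32.1, 39.8 and 35.0 TPM in pLV-SEMA6A cells (log2 fold change 0.05, 95% interval −0.14 to 0.23, limma adjusted p = 0.630). Snhg3, host of Snora73a and Snora73b, had 26.1, 34.7 and 24.1 TPM in pLV-Control cells and 32.3, 31.4 and 42.9 TPM in pLV-SEMA6A cells (0.32, 95% interval −0.08 to 0.72, limma adjusted p = 0.160). For Snhg3, 71.5% of the exonic bases lie opposite Gm17300 and 13.7% lie in Rcc1 on the same strand. Of its 31-base stretches, 68.8% are shared with other genes, so the level of Snhg3 is uncertain. Without pLV-SEMA6A replicate 3 its log2 fold change was 0.18.

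The remaining 3 snoRNA and scaRNA hosts were low and scattered. Snhg14, the long host of the Snord115 and Snord116 clusters, had 8.63, 1.77 and 3.65 TPM in pLV-Control cells and 3.91, 3.37 and 1.87 TPM in pLV-SEMA6A cells (log2 fold change −0.34, 95% interval −1.44 to 0.77, limma adjusted p = 0.576). Snhg10, which contains Scarna13, had 3.33, 1.54 and 2.82 TPM in pLV-Control cells and 1.38, 2.47 and 2.96 TPM in pLV-SEMA6A cells (−0.12, 95% interval −0.78 to 0.54, limma adjusted p = 0.740). Both overlapped, and their intervals reach past 0.5 on either side. Snhg9, host of Snora78, was at 7.03 TPM in pLV-Control cells replicate 1 and at 10.6 and 16.2 TPM in pLV-SEMA6A cells replicates 2 and 3, and was listed at 0 in the other libraries, so no fold change is given.

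Among the 5 microRNA hosts, none was a DEG, 2 were lower by adjusted p and the median log2 fold change was −0.34. Mir100hg (ENSMUSG00000074415, chromosome 9), which contains Mir100, Mirlet7a-2 and Mir125b-1, was the most abundant of them. It had 127, 120.3 and 119.8 TPM in pLV-Control cells and 102, 97.3 and 91.4 TPM in pLV-SEMA6A cells, with no overlap. The log2 fold change was −0.34 ± 0.05 (SE, limma adjusted p = 0.00149), short of the fold threshold.

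Mir22hg (ENSMUSG00000085148, chromosome 11), which carries miR-22 in an exon, had 23.1, 24.1 and 22.6 TPM in pLV-Control cells and 19.4, 17.1 and 17.4 TPM in pLV-SEMA6A cells. The groups were apart. By limma, the log2 fold change was −0.36 ± 0.06 (SE, adjusted p = 0.00371), and 10.7% of its exonic bases lie in Tlcd2 on the same strand.

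Mir155hg (ENSMUSG00000097418, chromosome 16), the host of the immune-cell microRNA miR-155, had 3.14, 4.02 and 4.72 TPM in pLV-Control cells. It had 2.70, 2.79 and 0.97 TPM in pLV-SEMA6A cells, so the groups did not overlap. At this low level the log2 fold change of −0.70 ± 0.28 (SE) did not pass the test (limma adjusted p = 0.0829), and without pLV-SEMA6A replicate 3, the lowest library, it was −0.39.

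The hosts of the miR-17 and miR-15/16 groups overlapped between groups. Mir17hg (ENSMUSG00000089726, chromosome 14), the host of a cluster that promotes proliferation, had 6.25, 6.21 and 5.45 TPM in pLV-Control cells and 5.84, 5.57 and 6.36 TPM in pLV-SEMA6A cells (log2 fold change −0.01, 95% interval −0.22 to 0.20, limma adjusted p = 0.940). Dleu2 (ENSMUSG00000097589, chromosome 14), whose miR-15a and miR-16 restrain the cell cycle, had 6.52, 8.82 and 9.45 TPM in pLV-Control cells and 8.12, 10.4 and 8.48 TPM in pLV-SEMA6A cells (0.12, 95% interval −0.24 to 0.48, limma adjusted p = 0.544). The interval of each lies within 0.5 of zero.

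Among the 5 lncRNAs without an annotated snoRNA, scaRNA or microRNA, 2 fell (Pvt1 and Malat1), 2 were lower by adjusted p alone (Neat1 and Norad) and 1 was higher by adjusted p alone (Oip5os1). Pvt1 (ENSMUSG00000097039, chromosome 15), a neighbour of Myc that is often amplified with it in tumours, had 84.7, 90.9 and 78.5 TPM in pLV-Control cells and 36.4, 34.9 and 30.4 TPM in pLV-SEMA6A cells. The groups were far apart. Its log2 fold change of −1.30 ± 0.08 (SE, limma adjusted p = 5.8e-05) was the largest fall of the 28 genes. Myc, named for its place and after its values were seen, had means of 232 ± 6.03 and 223 ± 7.31 TPM (SD, n = 3 each; log2 fold change −0.06, limma adjusted p = 0.209).

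Malat1 (ENSMUSG00000092341, chromosome 19), a nuclear speckle RNA whose mature end lacks a poly-A tail, had 356, 449 and 357 TPM in pLV-Control cells and 210.3, 222 and 256 TPM in pLV-SEMA6A cells. The groups did not overlap although pLV-Control replicate 2 was well above the other controls. On the log2 scale, the change was −0.75 ± 0.11 (SE, limma adjusted p = 0.00200), and it was between −0.83 and −0.64 when single libraries were left out.

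Neat1 (ENSMUSG00000092274, chromosome 19), the scaffold of paraspeckles and the neighbour of Malat1, had 283, 277 and 260.1 TPM in pLV-Control cells and 204, 216 and 193 TPM in pLV-SEMA6A cells, with no overlap. The log2 fold change was −0.42 ± 0.05 (SE, limma adjusted p = 0.000826). Its longer isoform ends without a poly-A tail, and the gene-level value does not separate the isoforms.

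Norad (ENSMUSG00000102869, chromosome 2), a cytoplasmic RNA that binds Pumilio proteins, had 66.4, 67.2 and 65.7 TPM in pLV-Control cells and 57.4, 59.7 and 53.4 TPM in pLV-SEMA6A cells. The groups did not overlap, and the log2 fold change was −0.22 ± 0.05 (SE, limma adjusted p = 0.00815). Of its 31-base stretches, 44.7% occur in other genes, mainly Gm7292.

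Oip5os1 (ENSMUSG00000085438, chromosome 2), the transcript also known as Cyrano, was the 1 gene of the 28 that was higher by adjusted p. It had 20.1, 18.1 and 19.2 TPM in pLV-Control cells and 22.1, 20.9 and 21.9 TPM in pLV-SEMA6A cells, so the groups came close without overlap. By limma, the log2 fold change was 0.17 ± 0.05 (SE, adjusted p = 0.0423). The adjusted p by limma was 0.0556 to 0.116 without pLV-Control replicate 2 or 3, or without any 1 pLV-SEMA6A library. It was 0.0726 without the filter on low values and 0.0553 with a replicate block, so the call was lost in these fits.

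The 16 host lncRNAs below 1 TPM were counted and not tested. Of these, 7 were listed at 0 in every library, namely Meg3, Mirg, Mir142hg, Mir217hg, Mir9-3hg, Mir124a-1hg and Mir205hg. The other 9 were above 0 in at least 1 library, and included the imprinted H19 (up to 0.41 TPM), Kcnq1ot1 (0.25 to 0.39 TPM) and Rian (up to 0.03 TPM). The mean closest below the threshold was 0.63 TPM for Mir99ahg, and the closest above was 2.42 TPM for Snhg10.

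Many snoRNA hosts are known to start with a run of pyrimidines like that of ribosomal protein mRNAs, whose translation follows growth signals. Start sites from RefSeq on GRCm38.p6 were matched by symbol for 21 members, and a C followed by at least 4 bases that are each C or T was searched on the transcript strand, beginning within 5 bases of a start. It was present in 9 of the 21 (42.9%), in 24.0% of 9205 genes tested and in 21.2% of 27025 genes with a start. Of the Snhg genes and Gas5, 7 of 14 (50.0%) had it. Of the 9 members with the run, 4 were DEGs with lower levels and 5 were not DEGs, and of the 12 without it 4 were DEGs with lower levels and 8 were not. Mir17hg is counted without the run, but its listed start lies downstream of most of its microRNAs. The start of its full transcript was therefore not searched. A match is a description of letters only.

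The windows below are examples and run from 20 bases before to 30 bases from the start. Capitals mark the match that begins nearest the start, where there is one, so adjoining C or T bases before it stay in lower case. The run is at the start of Gas5, Snhg8, Snhg12 and Snhg18, which fell, and of Oip5os1, which did not. It was also found in Snhg3, Snhg9, Snhg10 and Mir22hg, none of them a DEG. It was not found in Snhg5, Snhg16, Snhg20 and Malat1, which fell, in Snhg1 or at the other listed start of Gas5. They are Gas5 (chr1:161035146-161035195, plus strand), Snhg8 (chr3:123508307-123508356, minus strand), Snhg12 (chr4:132308658-132308707, plus strand), Snhg18 (chr15:32244633-32244682, minus strand), Oip5os1 (chr2:119594276-119594325, plus strand), Snhg5 (chr9:88522868-88522917, minus strand) and Snhg1 (chr19:8723467-8723516, plus strand).
Gas5: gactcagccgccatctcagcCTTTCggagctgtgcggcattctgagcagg
Snhg8: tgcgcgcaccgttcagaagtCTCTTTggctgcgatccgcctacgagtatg
Snhg12: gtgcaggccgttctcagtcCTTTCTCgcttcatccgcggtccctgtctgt
Snhg18: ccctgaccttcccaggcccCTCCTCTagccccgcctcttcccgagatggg
Oip5os1: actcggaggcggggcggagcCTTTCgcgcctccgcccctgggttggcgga
Snhg5: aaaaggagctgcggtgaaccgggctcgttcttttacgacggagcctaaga
Snhg1: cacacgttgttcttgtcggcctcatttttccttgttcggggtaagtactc

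Genes for proteins that pack, process, degrade or bind these RNAs, protein-coding genes that also host snoRNAs, and protein-coding neighbours of the hosts were read from 8 lists of 84 genes in all, of which 78 were tested. Of these, 8 were higher DEGs and 4 lower DEGs by limma, beside 5.12% and 10.8% of all genes tested. By adjusted p alone, 33 were higher and 17 lower, beside 19.5% and 28.2% of all genes, and the counts by adjusted p in each list below stand against the same shares. The median log2 fold change over the 78 genes was 0.06.

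Transcripts for the proteins of the snoRNA particle were mostly higher. All 4 core proteins of box C/D particles were higher by adjusted p (median log2 fold change 0.32), and 1 was a DEG. This was Nop56, whose own introns also hold snoRNAs, at 413, 399 and 413 TPM in pLV-Control cells and 652, 618 and 644 TPM in pLV-SEMA6A cells (0.64, limma adjusted p = 1.4e-05). Of the 4 core proteins of H/ACA particles, 3 were higher by adjusted p and 2 were DEGs, with a median of 0.36. Nhp2 went from a mean of 109 ± 6.59 to 166 ± 3.10 TPM (SD, n = 3 each; 0.61, limma adjusted p = 0.000118), and Dkc1, the pseudouridine synthase, from 86.0 ± 4.20 to 127 ± 12.2 TPM (0.55, limma adjusted p = 0.00128). Of 11 assembly factors, 5 were higher and 0 lower by adjusted p, and the 1 DEG was Znhit6 (0.76, limma adjusted p = 0.000134), which acts in box C/D particle assembly.

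Protein-coding genes that host snoRNAs were mixed. Of 16, 7 were lower and 6 higher by adjusted p (median log2 fold change −0.02). The 3 DEGs were Eif4a2, a translation initiation helicase that fell (−0.82, limma adjusted p = 4.5e-06), and Nop56 and Dkc1, which rose and also stand in the lists of core proteins.

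Genes of nonsense-mediated decay, the route that degrades many spliced snoRNA hosts, held no DEG among 15 by limma, with 6 higher and 2 lower by adjusted p and a median of 0.05. The most abundant were Magoh, with means of 137 ± 6.10 and 177 ± 3.92 TPM (SD, n = 3 each; 0.37, limma adjusted p = 0.000456), and Eif4a3, with 119 ± 3.51 and 123 ± 3.41 TPM (0.04, limma adjusted p = 0.358). Both belong to the exon junction complex.

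Of 14 proteins of paraspeckles and nuclear speckles, the bodies built on Neat1 or holding Malat1, 4 rose and 1 fell, with a median log2 fold change of 0.22. Pspc1 rose from a mean of 11.9 ± 1.29 to 25.8 ± 2.20 TPM (SD, n = 3 each; 1.06, limma adjusted p = 0.000228). Sfpq, a paraspeckle protein, and Srsf2, a splicing factor of nuclear speckles, also rose, by 0.61 and 0.59. Srrm2, a scaffold of nuclear speckles, fell, with a log2 fold change of −0.61 (limma adjusted p = 6.3e-05).

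Of 9 tested genes of microRNA processing, 4 were lower and 2 higher by adjusted p, with a median of −0.18. The 1 DEG was Prkra, a partner of Dicer, with means of 23.2 ± 1.44 and 12.9 ± 0.685 TPM (SD, n = 3 each; −0.80, limma adjusted p = 0.000171). Of 7 tested protein-coding neighbours of the hosts, the 1 DEG was Zbtb37, next to Gas5 on chromosome 1, at 5.39, 4.77 and 6.39 TPM in pLV-Control cells and 2.89, 2.67 and 2.68 TPM in pLV-SEMA6A cells (−0.79, limma adjusted p = 0.00197).

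**Figure D4:**
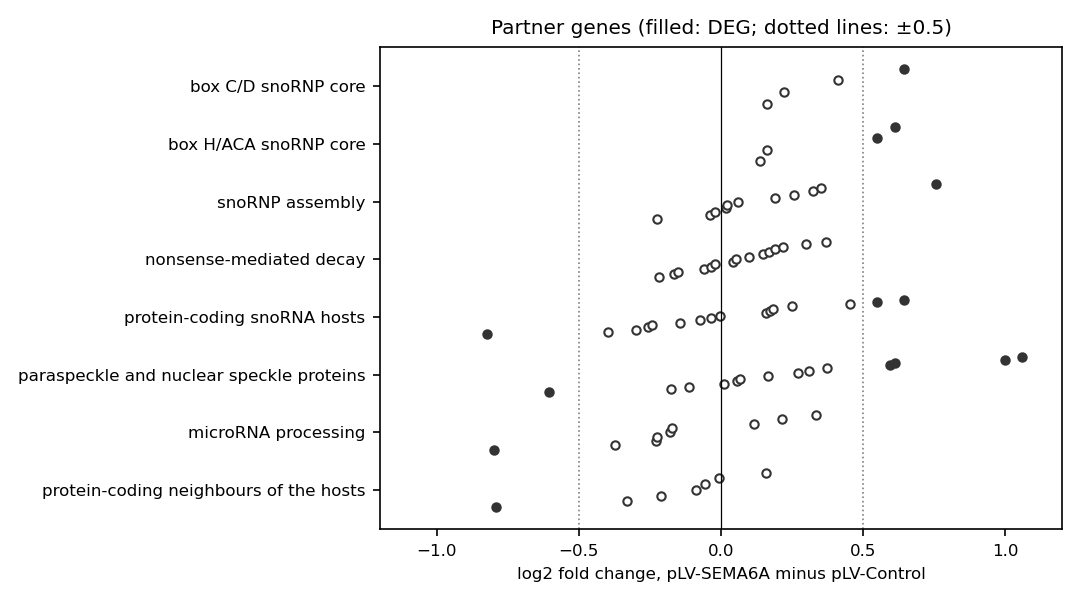
Log2 fold change (pLV-SEMA6A minus pLV-Control) of each tested gene in the 8 lists of partner proteins and neighbours, 1 point per gene, with DEGs filled. All core proteins of both kinds of snoRNA particle lie right of zero, and the paraspeckle and nuclear speckle list holds the highest point (Pspc1, 1.06).

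The small RNAs themselves were barely represented in these poly-A libraries, and the reason was not tested. Of 120 rows named Snora or Snord plus a number, 22 were above 0 in some library and 1 in every library, and 10 were above 0 in a single library. snoRNAs listed under other names, such as Gm26224 in Gas5, were not counted. Of 1104 microRNA rows, 5 were above 0 in some library. The host levels are therefore not levels of the small RNAs. Snora61 and Snora16a, of Snhg12, were each above 0 in 1 control library only (33.2 TPM in replicate 2 and 77.6 TPM in replicate 1), and Snord22, of Snhg1, in pLV-SEMA6A replicate 1 only (77.1 TPM). Snora73b, of Snhg3, had 3.47, 3.35 and 4.92 TPM in pLV-Control cells and 0, 0 and 4.43 TPM in pLV-SEMA6A cells (limma adjusted p = 0.111). Snora74a, of Snhg4, was above 0 only in pLV-Control replicate 2 (4.39 TPM) and pLV-SEMA6A replicate 1 (19.2 TPM).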

How the data were processed

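Total RNA of SL4 cells was enriched for poly-A RNA, fragmented, reverse transcribed with random primers and read on an Illumina instrument. TPM values per gene were deposited by the authors for 6 libraries, together with 2 columns of group means that were not used here. The submitters' processing notes name mm39, HISAT, Bowtie2 and RSEM without versions, and the library strand is not given in the sources used here. TPM keeps no read number, so depth is unknown and no count model, counting interval or detection limit was used. The 95% intervals given are those of limma for log2 fold changes.

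In R 4.3.3, limma 3.58.1 (trend option, group as the only term) was run on log2(TPM + 1) of genes averaging at least 1 TPM, with Benjamini-Hochberg adjustment over 12510 genes. Independent normal values were simulated around the gene means with the residual SDs of this fit. There, a log2 change of 1 given to 200 of 12510 genes was called in 82% of them, and 1.80% of calls were unchanged genes. These rates belong to that setting and were not estimated for the changes in these data. Of the listed identifiers, 97.1% matched GENCODE M21 (GRCm38), which gave biotypes, small RNA contents and the share of 31-base stretches found in other genes. Because this build differs from mm39, coordinates are given only with printed sequences.

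The genes named by rule are every host lncRNA averaging at least 1 TPM and, from each list, its DEGs or else its 2 most abundant genes. Beyond that rule, Epb41l4a, Myc, Matr3 and the further protein-coding snoRNA hosts of the closing paragraph were named after their values were seen. The values of 1 list gene are not reported here. The host lncRNAs and lists were chosen with earlier results of these data known. The alternatives comprised other minimum fold changes, centring on the median, a replicate block, a pseudocount of 0.1, dropping the filter on low values and leaving out each library.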

Additional observations from a re-analysis of the deposited data

How the results depend on the processing

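The fold threshold moved the counts most. With none, 5959 of all genes, 19 host lncRNAs and 50 list genes were called, and at a threshold of 1 (log2) 385, 4 and 1 were called, beside 1987, 11 and 12 in the reported fit. Centring each library on its median added 0.09 to each log2 fold change, kept 9 host lncRNAs as DEGs and turned the split of all genes from 1347 lower and 640 higher to 961 lower and 1002 higher. Without the filter on low values 9 host lncRNAs were DEGs. Leaving out 1 library gave 1905 to 1983 DEGs over all genes, 9 to 10 among the host lncRNAs and 11 to 12 in the lists, and 9 host lncRNAs were DEGs in every such fit, the exceptions being Snhg20 and Snhg4 (ENSMUSG00000117694).

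Over 10 settings per gene, 25 of the 28 host lncRNAs stayed on their side of the DEG threshold, the exceptions being Snhg8 (centring), Snhg20 and Snhg4 (ENSMUSG00000117694). Of the 19 with an adjusted p under 0.05, 15 kept it throughout, and Snhg1 came under it only when centred. The direction turned in 5, none of them called: Mir17hg (0.084 when centred, and −0.064 to 0.028 without single libraries), Snhg14 (−0.76 to 0.14), Snhg10 (−0.35 to 0.093), Snhg17 (−0.031 to 0.12) and Dleu2 (−0.024 to 0.21). The cause was not tested. The replicate numbers of the labels did not pair the libraries (correlation of same-numbered deviations −0.08 to −0.02), and with the replicate block 1924 of all genes, 11 host lncRNAs and 12 list genes were DEGs. Unknown depth limits what can be said of the hosts under 10 TPM.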

Other observations

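Among the snoRNA rows, values outside the comparisons stood out for 2 genes chosen after their values were seen. Snora43, the only one above 0 in every library, had 13.7, 10.8 and 11.5 TPM in pLV-Control cells and 7.41, 5.26 and 4.41 TPM in pLV-SEMA6A cells, with a log2 fold change of −0.98 (limma adjusted p = 0.00434). The 3 control libraries listed Snora70 at 0, whereas the 3 overexpressing libraries had 49.7, 23.8 and 77.5 TPM.

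Among the protein-coding snoRNA hosts, further values are given for genes chosen after their values were seen. Tpt1 had means of 5008 ± 103 TPM in pLV-Control cells and 4188 ± 127 TPM in pLV-SEMA6A cells (SD, n = 3 each), with a log2 fold change of −0.26 (limma adjusted p = 0.000434). Rack1, a ribosome-bound scaffold, changed by −0.40, Eef2, the translocation factor, by −0.30 and Eef1b2 by −0.24. The helicase Eif4a1, the nucleolar protein Ncl, Hspa9 and Wdr43, from the same list, were higher by 0.17, 0.25, 0.18 and 0.45. In the whole list, 7 were lower and 6 higher by adjusted p, beside 28.2% and 19.5% of all genes tested.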
